A study of Mus musculus with 40 samples.

Results

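The collagen genes were taken as every gene whose symbol in the array's probe annotation consists of Col, a number, a and a second number. The annotation named 37 such genes with 59 probes, out of 16593 genes and 25697 probes on the Illumina MouseRef-8 v2.0 array, and all 59 probes were followed. They were sorted by class into 11 fibrillar genes (17 probes), 6 basement membrane genes that encode the type IV chains (9 probes) and 20 other genes (33 probes). RNA came from mouse embryos of the *Aey69* line, which carries a mutation in the histone H3.2 gene *Hist2h3c1*, and from wild-type embryos (Ctrl). All samples carried the strain label C3HeB/FeJ, and the labels gave no zygosity. The tissue was the whole embryo at E9.5, the head at E10.5 and E11.5, the eye region at E12.5 and, by the methods, the eye at E13.5, where E is the embryonic day. The E13.5 labels are mixed, with eye region as the tissue of both genotypes and, as the source, eye for *Aey69* and eye region for Ctrl, so a difference in dissection between those groups cannot be told apart from genotype. The 36 samples comprised 4, 4, 4, 4 and 3 *Aey69* and 3, 4, 4, 3 and 3 Ctrl arrays at E9.5, E10.5, E11.5, E12.5 and E13.5. Another 4 arrays that the authors marked as excluded entered none of the main comparisons. As the reason, the study's methods name quality for the excluded Ctrl arrays of E9.5 and E13.5. For the excluded Ctrl array of E12.5 and *Aey69* array of E13.5 they name atypical levels of eye marker genes, perhaps from wrong staging. The tissue taken changed with age at every step except E10.5 to E11.5, both heads. Stage and tissue therefore cannot be told apart in any other comparison between stages. In these bulk samples fewer cells of a type and less RNA per cell cannot be told apart either.

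Collagens are extracellular proteins built from chains wound into a triple helix. Fibrillar collagens (types I, II, III, V, XI, XXIV and XXVII) assemble into the fibres of connective tissue, cartilage, sclera and corneal stroma. Type IV collagen forms the sheet-like network of basement membranes, which in the eye surrounds the lens and lines the retina and the vessels, and the remaining types make beaded filaments (type VI), hexagonal lattices (type VIII), fibril-associated molecules (types IX, XIV and XVI) and membrane-spanning proteins (types XIII, XVII, XXIII and XXV). In the developing eye much of the fibrillar and type VI collagen is made by the periocular mesenchyme.

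A level is given throughout as log2 of the normalised signal, and a probe counted as detected in a group when its detection p-value was below 0.05 on at least 3 of 4 or 2 of 3 arrays. By this measure 29 of the 37 collagen genes were detected in at least 1 of the 10 groups and 18 in all 10. The 8 genes detected in no group were the type IV chains *Col4a3* and *Col4a4* and *Col6a6*, *Col9a3*, *Col10a1*, *Col13a1*, *Col19a1* and *Col28a1*. *Col10a1*, the collagen of hypertrophic cartilage, was among these. The whole arrays had 44.6 to 54.9% of their probes detected, and no pair held identical values.

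Promoters are shown for 2 gene pairs that lie beside each other in the genome, since their levels are compared below. Each runs from 250 bases before to 50 bases after the RefSeq gene start in the build GRCm38.p6, written 5′ to 3′ on the gene's own strand. Capitals mark every GGGCGG (the core of the GC box) and CCAAT on either strand, so that CCGCCC and ATTGG are the same motifs read from the other strand. *Col6a1* (chr10:76725995-76726294, minus strand) and *Col6a2* (chr10:76623355-76623654, minus strand) encode chains of the same type VI molecule. *Col4a1* (chr8:11312777-11313076, minus strand) and *Col4a2* (chr8:11312555-11312854, plus strand) encode the main chains of type IV collagen and start 21 bases apart in opposite directions, so that their windows share 78 bases.
Col6a1: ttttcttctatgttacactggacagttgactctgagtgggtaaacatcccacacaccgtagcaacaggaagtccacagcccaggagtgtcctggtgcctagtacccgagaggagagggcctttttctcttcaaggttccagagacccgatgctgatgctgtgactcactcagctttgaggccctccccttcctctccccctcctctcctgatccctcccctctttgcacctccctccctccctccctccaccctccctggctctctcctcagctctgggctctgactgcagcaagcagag
Col6a2: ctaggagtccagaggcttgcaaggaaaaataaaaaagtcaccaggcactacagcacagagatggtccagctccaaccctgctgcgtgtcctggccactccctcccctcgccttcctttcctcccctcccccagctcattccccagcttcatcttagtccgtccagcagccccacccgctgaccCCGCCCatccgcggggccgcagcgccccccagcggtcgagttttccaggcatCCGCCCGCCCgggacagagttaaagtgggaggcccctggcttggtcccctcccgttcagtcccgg
Col4a1: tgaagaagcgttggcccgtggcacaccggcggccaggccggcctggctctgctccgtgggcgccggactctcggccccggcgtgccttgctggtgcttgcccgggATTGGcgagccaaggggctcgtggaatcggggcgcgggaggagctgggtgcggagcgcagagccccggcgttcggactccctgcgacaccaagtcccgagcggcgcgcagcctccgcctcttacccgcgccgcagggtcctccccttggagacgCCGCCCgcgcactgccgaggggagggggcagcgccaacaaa
Col4a2: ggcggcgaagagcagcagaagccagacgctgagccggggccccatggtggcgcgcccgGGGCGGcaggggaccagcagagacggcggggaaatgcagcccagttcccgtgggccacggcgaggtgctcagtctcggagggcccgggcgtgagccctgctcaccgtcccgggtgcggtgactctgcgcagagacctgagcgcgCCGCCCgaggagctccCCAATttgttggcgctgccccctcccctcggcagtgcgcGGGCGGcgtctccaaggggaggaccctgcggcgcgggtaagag
The *Col6a1* window held neither motif and was 57.3% G and C, whereas the *Col6a2* window shown held 3 GGGCGG, overlapping in part, and was 64.3% G and C. RefSeq lists a second start for *Col6a2*, whose window (chr10:76623581-76623880) held 1 GGGCGG. The *Col4a1* window held 1 of each motif and the *Col4a2* window 3 GGGCGG and 1 CCAAT. A RefSeq window existed for 30 of the 37 collagen genes. GGGCGG was found in 19 of these 30, against 35.7% of 32851 promoters of the same length, CCAAT in 12, against 37.4%, and TATAAA in 5, against 13.6%. The 5 were *Col3a1*, *Col10a1*, *Col11a2*, *Col13a1* and *Col17a1*.

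The level of each pair was followed over the 10 group means and over the 36 deviations of single arrays from their group mean. These correlations are descriptions, since the points share arrays, stages and normalisation. *Col6a1* and *Col6a2* ran together by both measures, with r = 0.99 over the group means and 0.90 within groups. *Col4a1* and *Col4a2* did not share a time course, with r = -0.03 over the group means, and had r = 0.78 within groups. The other neighbouring pair, *Col4a5* and *Col4a6*, which start 1343 bases apart in opposite directions on chromosome X, had r = 0.75 over the group means and 0.31 within groups. The median r of all 91 pairs within the other class was 0.71 and 0.34, and of all 6 basement membrane pairs 0.15 and 0.13. Within groups the raw median signal of an array correlated with *Col6a1* at -0.53, *Col6a2* at -0.50, *Col4a1* at -0.83 and *Col4a2* at -0.56. Its part in the correlations of the pairs was not tested.

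The first question was how the collagens moved from stage to stage in the Ctrl embryos. Few moved before E10.5, and by E13.5 collagens of all 3 classes had risen. From E9.5 to E10.5, whole embryo to head, 1 of 26 detected collagen probes passed a false discovery rate of 10%, with 2.03% of all detected probes higher and 4.08% lower. This was *Col26a1*, an extracellular collagen first described in testis and ovary, which rose by 0.88 (SE 0.23, adjusted p = 0.0369), a call lost without Ctrl array 3 or 5 of E9.5 or array 3 of E10.5. From E10.5 to E11.5, within the head, 7 of 33 collagen probes were higher (21.2%, against 7.53% of all detected probes) and 1 was lower (3.03%, against 5.85%). The rise was carried by *Col8a2*, whose type VIII chain forms part of Descemet's membrane in the cornea (at least 2.11-fold, adjusted p = 8.95e-05), *Col6a2* (1.28, adjusted p = 0.00268), *Col17a1*, a hemidesmosome protein of surface epithelium (1.22, adjusted p = 6.92e-05, detected on 1 of 4 Ctrl arrays at E10.5), *Col9a2*, a fibril-associated chain of cartilage and vitreous (1.18, adjusted p = 0.00281), and *Col24a1*, a minor fibrillar chain (at least 1.33-fold, adjusted p = 0.0729). *Col4a6* was the gene that fell, by 0.61 (adjusted p = 0.0912).

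Between E11.5 and E12.5, head to eye region, 9 of 34 collagen probes were higher (26.5%, against 9.52%) and 1 was lower (2.94%, against 6.78%). *Col6a1* rose by 1.44 (SE 0.31, adjusted p = 0.00349) and *Col6a2* by 0.96 (adjusted p = 0.0435). The fibrillar genes *Col1a1* (1.17, adjusted p = 0.0733), *Col3a1* (1.10, adjusted p = 0.00187) and *Col5a2* (0.98) rose with *Col16a1* (1.22, adjusted p = 0.00236), a fibril-associated collagen, and *Col17a1* (0.99). The gene that fell was *Col18a1*, a basement membrane proteoglycan that is the source of endostatin, by 0.54 (adjusted p = 0.0337). Of the 8 genes that passed, leaving out Ctrl array 4 of E11.5 gave 5 calls, all of them higher. Without Ctrl array 2 of E12.5, 6 of the 8 stayed called. *Col1a1* (0.94, adjusted p = 0.334) and *Col6a2* (0.84, adjusted p = 0.20) then did not pass. Over the 7 fits that left out 1 array, *Col1a1* passed in 2 and *Col6a2* in 5. From E12.5 to E13.5, 20 of 34 collagen probes, belonging to 15 genes, were higher (58.8%, against 12.6%) and none was lower (against 10.4%). The steepest rises were those of *Col7a1*, the anchoring fibril collagen of skin and cornea (1.68, adjusted p = 0.00149), *Col4a5* (1.67, adjusted p = 0.0106), *Col16a1* (1.59, adjusted p = 8.41e-05), *Col17a1* (1.55) and *Col14a1*, a fibril-associated collagen (1.44, adjusted p = 2.56e-06). *Col3a1* rose by 1.10, *Col6a1* by 1.11, *Col5a1* by 0.92 and *Col6a2* by 0.83. Ctrl array 2 of E12.5 did not detect *Col4a5*. Without that array the rise of *Col4a5* was 0.92 and did not pass (adjusted p = 0.155).

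**Figure D1:**
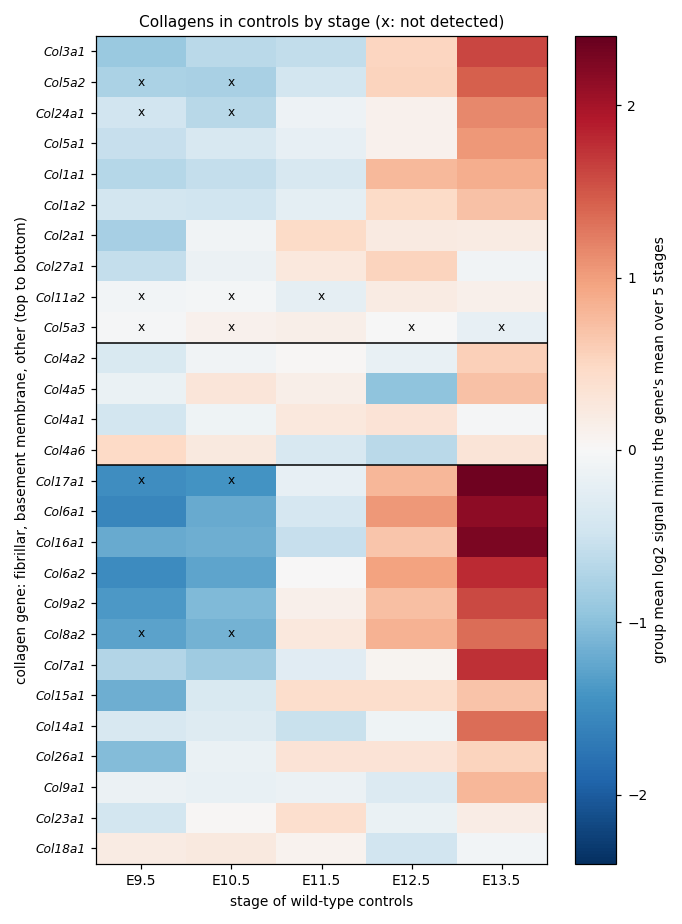
Level of each collagen gene detected in a Ctrl group at the 5 stages, as the group mean of log2 signal minus that gene's mean over the stages, with genes ordered by class and a cross where the gene was not detected in that group. *Col6a1*, *Col3a1*, *Col16a1* and *Col17a1* are lowest at the early stages and highest at E13.5, while *Col18a1* is highest at the early stages.

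*Col6a1* had a higher mean at each later stage in the Ctrl embryos. The group means of *Col6a1* were 7.45, 7.81, 8.61, 10.05 and 11.16 from E9.5 to E13.5. In *Aey69* they were 7.20, 7.64, 8.97, 8.16 and 11.52, so that E12.5 was the stage at which the 2 courses parted. *Col2a1*, the main collagen of cartilage and vitreous, had Ctrl means of 9.48, 10.19, 10.73, 10.47 and 10.46 and *Aey69* means of 9.67, 9.90, 10.54, 10.16 and 10.40.

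The central question was whether the collagens differed between *Aey69* and Ctrl embryos of the same stage. At E9.5, limma called none of 23 detected collagen genes, with 0% of all detected probes called. At an unadjusted p below 0.05 there was 1 gene, against 10.6% of all detected probes. This was *Col4a6*, at -0.55 (SE 0.18, adjusted p = 0.638), while *Col15a1* had the widest difference in the other class, 0.49 (adjusted p = 0.687). In the fibrillar class this was *Col11a2*, detected on no Ctrl array and at least 1.16-fold higher in *Aey69* (adjusted p = 0.644). At E10.5 none of 22 genes was called by limma and none had an unadjusted p below 0.05, against 0% and 1.12% of all detected probes. The widest differences by class were -0.34 for *Col27a1* (fibrillar), 0.30 for *Col4a5* (basement membrane) and 0.24 for *Col17a1* (other, detected on 1 of 4 Ctrl arrays).

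At E11.5 none of 27 detected collagen genes passed in limma, with 0.0759% of all detected probes called, and 3 genes had an unadjusted p below 0.05, against 9.57% of all detected probes. *Col17a1* stood at 0.60 above Ctrl (adjusted p = 0.658) and *Col24a1* at 0.38. The widest differences of their classes, *Col7a1* at 0.64 (adjusted p = 0.658) and *Col27a1* at 0.45 (adjusted p = 0.659), had unadjusted p above 0.05. *Col4a5*, whose chain forms a type IV network of its own with other minor chains, had 7.39, 7.22, 7.92 and 6.96 on the Ctrl arrays and 7.16, 5.87, 5.88 and 7.31 on the *Aey69* arrays. Arrays are called by their numbers in the deposited table. Mutant arrays 3 and 4 were below every Ctrl array and mutant arrays 2 and 5 lay among them, so the groups overlapped (difference -0.82, SE 0.35, adjusted p = 0.658). On the same 2 mutant arrays *Col1a1* was 10.58 and 10.47, above the other *Aey69* arrays at 9.52 and 9.20 and the Ctrl arrays at 9.78, 10.01, 9.54 and 9.46. These 2 arrays were the dimmest of the stage, with a raw median signal of 8 each, against 16 and 15 on the other mutants and 13 to 19 in Ctrl, and within groups the raw median correlated with *Col4a5* at r = 0.81 and with *Col1a1* at -0.50 over the 36 arrays. Its part in the E11.5 values was not tested.

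At E12.5 collagens were lower in the *Aey69* eye region. Of 26 detected collagen genes, 6 passed the false discovery rate of 10% and all 6 were lower, namely *Col1a1*, *Col6a1*, *Col6a2*, *Col8a2*, *Col16a1* and *Col17a1*. Counted by probe, 6 of 33 collagen probes were called lower (18.2%, against 0.425% of all detected probes) and 0 higher (against 0.0648%). At an unadjusted p below 0.05, 17 of 33 probes, from 13 genes, were lower (51.5%, against 6.31%) and none higher (against 7.98%). The difference was below 0 for 23 of the 26 genes, with a median of -0.41 beside 0.03 for all detected probes. In 14 genes every *Aey69* array was below every Ctrl array, and in none was it the reverse, against 6.28% and 8.68% of all detected probes. By class, 1 of 9 fibrillar, 0 of 4 basement membrane and 5 of 13 other genes were called, and the median differences were -0.69, -0.18 and -0.46.

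Among the fibrillar genes *Col1a1*, the main chain of bone, skin and scleral collagen, was the 1 called. Its levels were 11.35, 10.34 and 10.93 on the Ctrl arrays and 9.28, 9.03, 8.73 and 9.26 on the *Aey69* arrays. All 4 mutant arrays were below the lowest Ctrl array, and the gene was 3.48-fold lower (log2 difference -1.80, SE 0.25, adjusted p = 0.0494). *Col3a1*, the type III chain of reticular fibres, had 7.75, 8.23 and 8.24 in Ctrl and 6.97, 7.24, 6.40 and 7.34 in *Aey69*. *Col5a1*, which starts and limits the width of type I fibrils, had 10.63, 10.58 and 10.59 in Ctrl and 9.46, 9.74, 9.26 and 9.98 in *Aey69*. For both genes the groups were apart, but neither passed the test, with differences of -1.09 (SE 0.25, adjusted p = 0.214) and -0.99 (SE 0.19, adjusted p = 0.146). *Col1a2*, the partner chain of *Col1a1*, read 7.42 on Ctrl array 2 but 5.72 and 5.59 on the other Ctrl arrays, close to the *Aey69* range of 5.44 to 5.54 (difference -0.75, SE 0.39, adjusted p = 0.603). The remaining fibrillar genes ran from -0.69 for *Col27a1* (adjusted p = 0.369) through -0.37 for *Col5a2* (adjusted p = 0.492) and -0.31 for *Col2a1* (adjusted p = 0.574) to 0.15 for *Col24a1*. *Col11a1*, a type XI chain of cartilage and vitreous, was detected in 1 group alone, *Aey69* at E11.5, where its mean was 5.28 against 4.96 in Ctrl (0.32, adjusted p = 0.658), where 1 of 4 arrays detected it.

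Type VI collagen, which links cells to the surrounding matrix, held the largest difference of the family at this stage. *Col6a1* was at 10.44, 9.82 and 9.88 on the Ctrl arrays and 8.04, 7.95, 7.97 and 8.70 on the *Aey69* arrays. The gap between the groups exceeded the spread within either, and *Col6a1* was 3.70-fold lower (-1.89, SE 0.24, adjusted p = 0.0293). Its second probe gave -1.31 and did not pass (adjusted p = 0.40). *Col6a2* was at 8.30, 7.70 and 8.19 in Ctrl and 6.55, 6.48, 6.38 and 6.93 in *Aey69*, again without overlap, and was 2.79-fold lower (-1.48, SE 0.20, adjusted p = 0.0438). For both genes mutant array 5 was the highest of the 4 mutants.

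*Col8a2*, *Col16a1* and *Col17a1* were the other genes called. *Col8a2* had levels of 7.12, 6.56 and 6.66 in Ctrl and 5.41, 5.54, 5.12 and 5.86 in *Aey69*, a 2.46-fold difference (-1.30, SE 0.21, adjusted p = 0.0929). *Col17a1* had closely spaced Ctrl values, 7.32, 7.26 and 7.21, against 6.23, 6.21, 6.24 and 6.62 in *Aey69* (1.91-fold, -0.94, SE 0.15, adjusted p = 0.0902). A further pair of probes for *Col17a1* gave -0.48 (adjusted p = 0.414) and -0.71 (adjusted p = 0.339). *Col16a1*, which is found in fibroblasts and smooth muscle, had 9.41, 8.83 and 8.86 in Ctrl and 7.60, 7.77, 7.74 and 8.09 in *Aey69* (2.35-fold, -1.23, SE 0.20, adjusted p = 0.0797). In all 3 genes the mutants were below every Ctrl array, with mutant array 5 the nearest. Other genes of this class did not pass, from -0.69 for *Col15a1* (adjusted p = 0.458) to 0.17 for *Col18a1* and 0.19 for *Col9a1*.

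**Figure D2:**
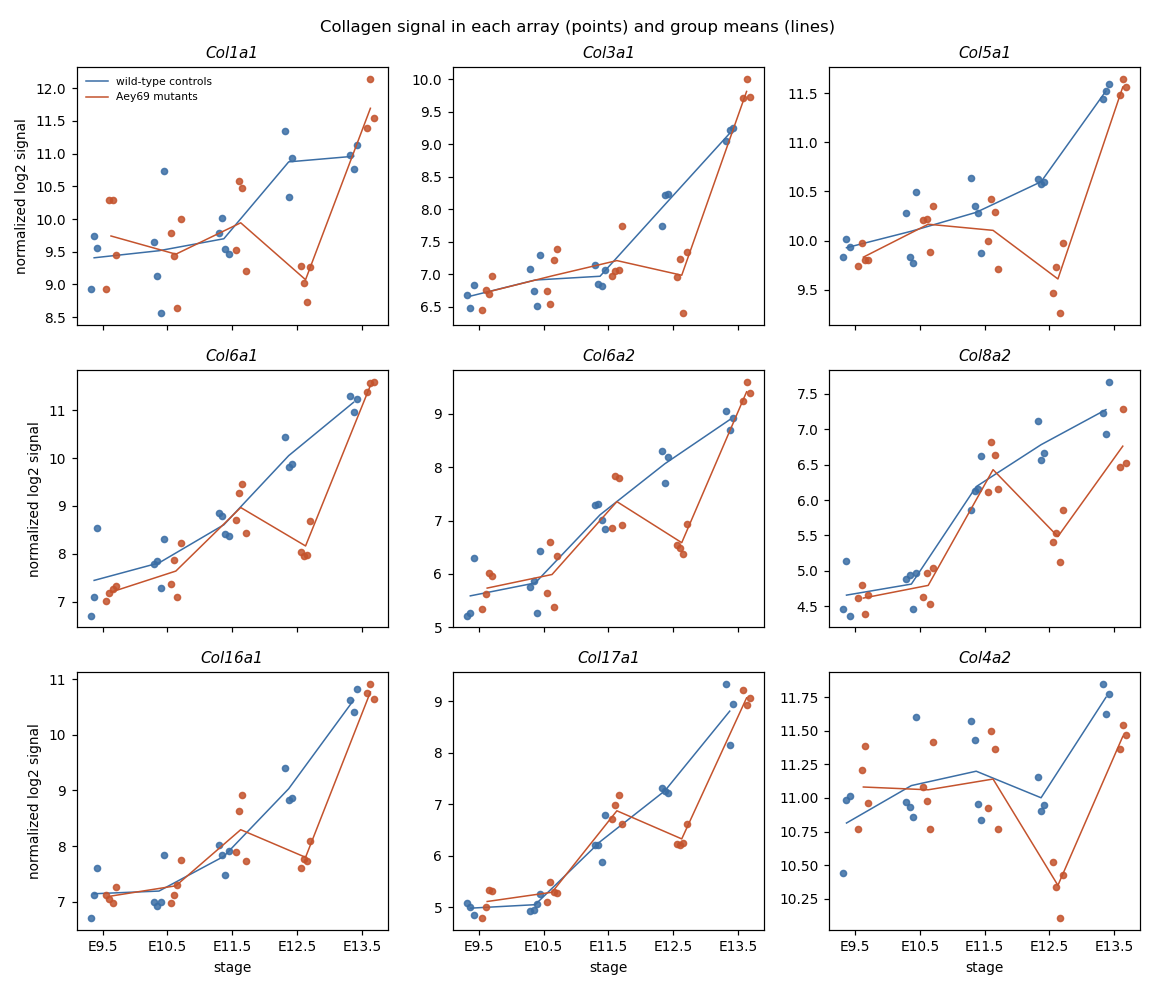
Log2 signal of 9 collagen genes on each of the 36 arrays by stage, with *Aey69* arrays in red, Ctrl arrays in blue and lines that join the group means. At E12.5 the *Aey69* points are below all Ctrl points in each of the 9 panels, and at E13.5 those of *Col1a1*, *Col3a1*, *Col6a1* and *Col6a2* are above them.

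In the basement membrane class *Col4a2* had 11.16, 10.90 and 10.95 in Ctrl and 10.53, 10.34, 10.11 and 10.43 in *Aey69*. These groups did not overlap, but the difference did not pass (-0.65, SE 0.15, adjusted p = 0.243). Its partner *Col4a1* had 13.04, 11.72 and 11.55 in Ctrl and 11.96, 11.88, 11.94 and 11.82 in *Aey69*, so the mutants lay between Ctrl array 2 and the other Ctrl arrays (-0.20, adjusted p = 0.911). *Col4a5* had 4.77, 7.11 and 6.91 in Ctrl and 6.03, 6.27, 5.66 and 6.48 in *Aey69* (-0.15, SE 0.52, adjusted p = 0.965). Here Ctrl array 2 was below all mutants and the other Ctrl arrays above them.

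Ctrl array 2 at E12.5 therefore stood apart in several collagens, and it was also the dimmest array of its group. Its raw median signal was 8, against 22 and 23 on the other Ctrl arrays and 12, 14, 11 and 15 on the mutant arrays. Across the 36 arrays, within groups, the raw median correlated with the normalised level of *Col4a1* at r = -0.83, of *Col16a1* at -0.73, of *Col6a1* at -0.53, of *Col1a1* at -0.50, of *Col3a1* at 0.03 and of *Col4a5* at 0.81. These are descriptions over arrays that were normalised together, and the part of array brightness in the genotype differences was not tested. Without Ctrl array 2, 11 collagen genes were lower and 1 higher at E12.5, including all 6 of the genes named above. Many more genes of every kind were then called too, 17.4% of all detected probes lower and 17.2% higher, beside 15 of 33 collagen probes (45.5%) lower. The genes added were *Col3a1* (-1.25, adjusted p = 0.00773), *Col5a1* (-0.97, adjusted p = 0.0104), *Col4a5* (-0.90, adjusted p = 0.0194), *Col4a2* (-0.58, adjusted p = 0.0353), *Col27a1* (-0.44, adjusted p = 0.0735) and, higher, *Col18a1* by its second probe (0.69, adjusted p = 0.0113). The 6 calls made with all arrays also rested on the other libraries, since leaving out any 1 of the 7 arrays gave between 0 and 12 collagen genes, and 0 without Ctrl array 5 or without mutant array 1, 3 or 4, 2 without mutant array 5 and 3 without Ctrl array 3. With the 4 excluded arrays put back, 0 were called. Apart from the fit without Ctrl array 2, the share of all detected probes called in these fits is not given here. The excluded Ctrl array of E12.5 was read in a normalisation that included it. It had 8.56 for *Col6a1*, 6.28 for *Col17a1* and 5.59 for *Col8a2*, each within the range of the *Aey69* arrays given above. For *Col16a1* it had 8.08, close to the highest *Aey69* array at 8.09. The ranges of the arrays used come from the normalisation without this array, so values that close cannot be ordered. For *Col1a1* (10.23) and *Col6a2* (7.02) it was above the highest *Aey69* arrays (9.28 and 6.93) and below the lowest Ctrl arrays used (10.34 and 7.70). The difference for *Col6a1* stayed between -2.06 and -1.69 over those 7 fits and for *Col1a1* between -2.07 and -1.56.

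**Figure D3:**
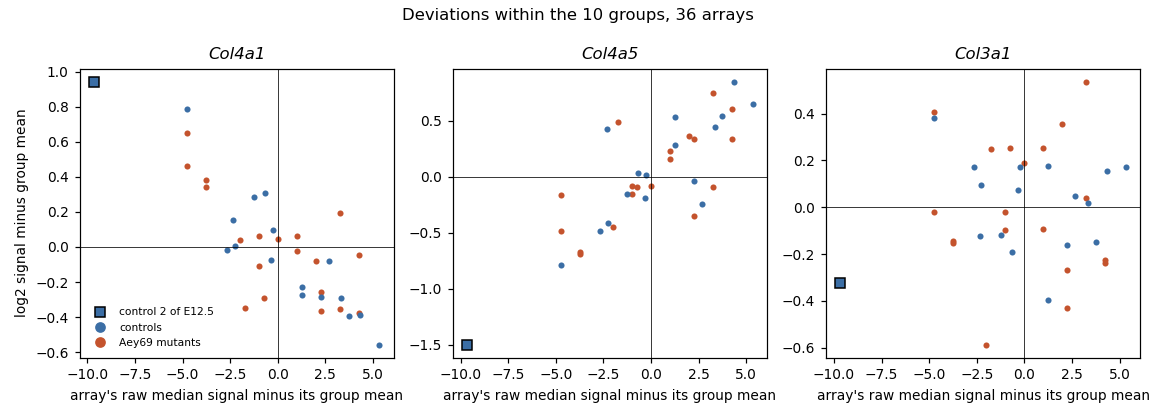
Deviation of log2 signal from the group mean for *Col4a1*, *Col4a5* and *Col3a1* (vertical axis) against the deviation of each array's raw median signal from its group mean (horizontal axis), 1 point per array for 36 arrays, with Ctrl array 2 of E12.5 as a square. *Col4a1* runs down (r = -0.83) and *Col4a5* up (r = 0.81) with brightness, while *Col3a1* shows no slope (r = 0.03).

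At E13.5 no collagen gene of the 27 detected passed in limma, with 1.61% of all detected probes called. Without Ctrl array 4, 4 passed, 2 higher and 2 lower. The share of all detected probes called in that fit is not given here, so this count cannot be set against it. At an unadjusted p below 0.05, 8 of 36 collagen probes were higher (22.2%, against 11.6% of all detected probes) and 6 were lower (16.7%, against 10.9%). The classes leaned in different directions, with a median of 0.22 for fibrillar, 0.05 for other and -0.42 for basement membrane genes, all 4 of which were below 0. The arrays of the 2 groups did not overlap for 6 genes with *Aey69* above (*Col1a1*, *Col3a1*, *Col5a2*, *Col6a1*, *Col6a2* and *Col26a1*) and 6 with *Aey69* below (*Col4a1*, *Col4a2*, *Col4a5*, *Col4a6*, *Col9a1* and *Col11a2*), against 13.9% and 17.3% of all detected probes.

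*Col3a1* came nearest to the threshold at this stage. It had 9.05, 9.22 and 9.25 in Ctrl and 9.72, 10.004 and 9.72 in *Aey69* (0.64, SE 0.13, adjusted p = 0.10). *Col1a1* had 10.97, 10.77 and 11.14 in Ctrl and 11.40, 12.14 and 11.54 in *Aey69* (0.73, SE 0.20, adjusted p = 0.162). *Col6a2* had 9.05, 8.69 and 8.93 in Ctrl and 9.23, 9.61 and 9.40 in *Aey69* (0.52, adjusted p = 0.162). All 3 were thus above Ctrl on every mutant array, 1 stage after they had been below it. *Col27a1* had the widest difference of the fibrillar class, 0.92, but its Ctrl arrays spread over 5.70, 6.83 and 4.99 (SE 0.40, adjusted p = 0.309).

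On the lower side, *Col9a1*, a type IX chain of the vitreous, had 6.49, 6.42 and 6.37 in Ctrl and 5.80, 5.63 and 5.99 in *Aey69* (-0.62, SE 0.13, adjusted p = 0.105). *Col4a6* had 6.13, 6.08 and 5.76 in Ctrl and 5.48, 5.28 and 5.55 in *Aey69* (-0.56, adjusted p = 0.146), and *Col4a5* 8.36, 7.69 and 7.74 against 7.22, 7.30 and 7.61 (-0.55, adjusted p = 0.243). *Col4a2* had 11.85, 11.63 and 11.77 in Ctrl and 11.36, 11.54 and 11.47 in *Aey69* (-0.29, adjusted p = 0.273). *Col4a2* was the type IV chain below Ctrl without overlap at both E12.5 and E13.5. *Col8a2*, *Col16a1* and *Col17a1*, called lower at E12.5, overlapped between the groups at E13.5.

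**Figure D4:**
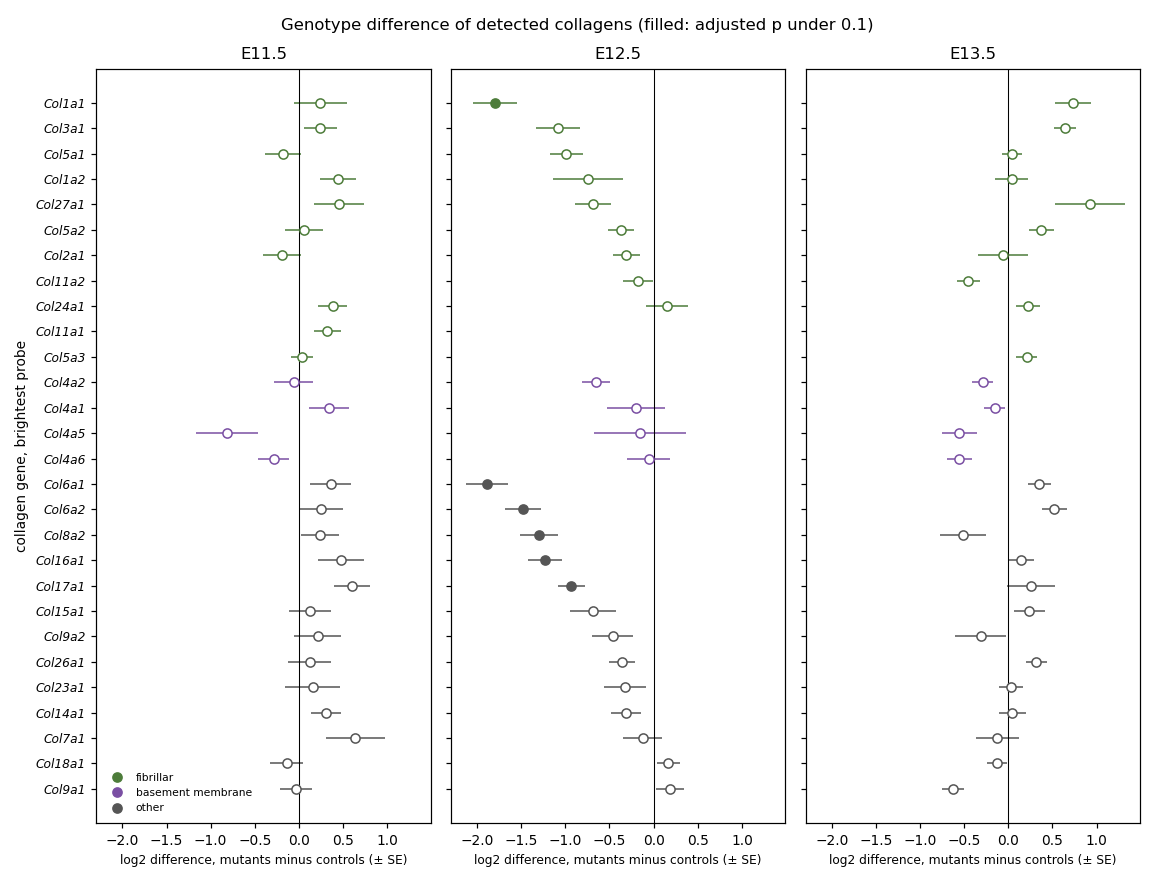
Difference between *Aey69* and Ctrl in log2 signal for each detected collagen gene at the last 3 stages, E11.5 to E13.5, as points with bars of ± 1 SE and filled points for genes past the false discovery rate of 10%. At E12.5 most points lie left of 0 and 6 are filled, and at E11.5 and E13.5 none is filled.

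Whether the genotype difference itself changed between stages was tested as an interaction in a model of all 10 groups. From E9.5 to E10.5 limma called none of 24 collagen genes and none had an unadjusted p below 0.05, against 0.0145% and 6.46% of all detected probes. From E10.5 to E11.5 it called none of 27, with 1 higher and 1 lower at an unadjusted p below 0.05, against 0.00721% and 5.01%. From E11.5 to E12.5 the difference moved down in 6 of 28 genes and up in none, or 7 of 35 probes (20%, against 0.55% of all detected probes lower and 0.162% higher). These were *Col6a1* (-2.25, SE 0.42, adjusted p = 0.0064), *Col6a2* (-1.73, adjusted p = 0.0497), *Col16a1* (-1.71, adjusted p = 0.0121), *Col8a2* (-1.54, adjusted p = 0.019), *Col17a1* (-1.54, adjusted p = 0.00411) and *Col3a1* (-1.33, adjusted p = 0.0436). *Col1a1* shifted by -2.04 but did not pass (SE 0.54, adjusted p = 0.123). By their second probes *Col6a1* shifted by -1.79 (adjusted p = 0.363) and *Col3a1* by -0.41 (adjusted p = 0.943), and neither passed. The further *Col17a1* probes gave -1.45 (adjusted p = 0.0496), which passed, and -0.65 (adjusted p = 0.617), which did not.

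From E12.5 to E13.5 the difference moved up in 8 of 27 genes and down in none, or 9 of 36 probes (25%, against 1.32% of all detected probes higher and 1.28% lower). *Col1a1* moved by 2.53 (SE 0.58, adjusted p = 0.0224), *Col6a1* by 2.24 (adjusted p = 0.00701), *Col6a2* by 2.00 (adjusted p = 0.0125) and *Col3a1* by 1.73 (adjusted p = 0.00246). By their brightest probes these 4 passed in each of the 13 fits that left out 1 array. The count of genes nevertheless fell to 4 without *Aey69* array 5 of E13.5. It fell to 5 without *Aey69* array 4 of E12.5, *Aey69* array 2 or 4 of E13.5 or Ctrl array 2 of E13.5. The other 4 passed in fewer of those fits, *Col17a1* (1.19, adjusted p = 0.0426) in 10, *Col5a1* (1.03, adjusted p = 0.0536) in 9, *Col16a1* (1.38, adjusted p = 0.0608) in 5 and *Col27a1* (1.61, adjusted p = 0.0974) in 2. Both interactions rest on the same 7 arrays of E12.5, so they are not independent of each other or of the comparison within E12.5.

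The genes that act on collagen were taken from lists made for this purpose, and few of them passed at E12.5. Over all detected probes 0.425% were called lower and 6.31% were lower at an unadjusted p below 0.05. Of 16 detected genes for chain folding and modification none was called, 2 were lower at an unadjusted p below 0.05, and the median was -0.13. For *P3h3*, a prolyl 3-hydroxylase, the difference was -0.89 (adjusted p = 0.157), and for its partner *Crtap* -0.81 (adjusted p = 0.169). None of the 3 detected export genes (median -0.54) and none of the 4 detected genes for cleavage and assembly (median -0.42) was called. None of the 3 detected crosslinking genes passed either, though the median was -1.04, with *Lox*, the lysyl oxidase that crosslinks fibrils, at -2.05 (SE 0.47, adjusted p = 0.211). One of 6 detected collagen receptors was called, *Itga11*, the fibrillar collagen integrin, at -1.18 (adjusted p = 0.0535). Of 10 detected degradation genes 1 was called, *Ctsk*, the collagen-degrading cathepsin K, at -1.01 (adjusted p = 0.0855). At an unadjusted p below 0.05, 5 of these 10 were lower and 0 higher, with a median of -0.40. By the same measure 2 of 3 crosslinking, 2 of 4 cleavage and assembly, 2 of 6 receptor and 1 of 3 export genes were lower. In the cleavage and assembly list and in the receptor list 1 gene each was higher, against 7.98% of all detected probes. Among 9 detected partners of collagen in the basement membrane none was called, and 3 were lower at an unadjusted p below 0.05, among them the nidogens *Nid1* (-1.0) and *Nid2* (-0.95), with a median of -0.46.

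Several marker lists had medians below 0 at E12.5, against 0.425% of all detected probes called lower and 6.31% lower at an unadjusted p below 0.05. Of 12 detected genes of the periocular mesenchyme list none was called and 6 were lower at an unadjusted p below 0.05, with a median of -0.40, *Twist2* at -1.23 (adjusted p = 0.241) and *Foxc1* at -1.13. The summed signal of these 12 genes was 4929 to 8422 on the Ctrl arrays and 3316 to 4649 on the *Aey69* arrays. For the endothelium list (8 detected, 0 called, median -0.53) the sums were 2182 to 2246 and 1257 to 1578, and for skeletal muscle (6 detected, *Mylpf* called at -1.56, median -0.87) they were 842 to 2351 and 501 to 963. The cartilage list (5 detected, median -0.55) and the bone list (2 detected) had no call. Muscle sums overlapped between the genotypes, while mesenchyme and endothelium sums did not. Surface ectoderm (7 detected, median -0.34) had 1 call, *Krt14*, a basal keratin, at -1.74 (adjusted p = 0.0137). In the lens list 7 of 10 detected genes were called lower (median -3.38), with sums of 3537 to 7137 in Ctrl and 633 to 709 in *Aey69*. The neural retina list, with *Lhx2* called at -1.05, had a median of 0.16, the pigment epithelium list 0.23 and the ventral forebrain list 0.45.

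At E13.5 the median of the mesenchyme list was 0.10. *Prrx1* was called higher at 0.96 (adjusted p = 0.0841), 2 of its 12 detected genes were lower at an unadjusted p below 0.05, against 10.9% of all detected probes, and the sums were 6648 to 7796 in Ctrl and 7855 to 8942 in *Aey69*, which did not overlap. The skeletal muscle list had a median of 0.65, with 0 of 7 detected genes called by limma and 3 higher at an unadjusted p below 0.05, against 11.6% of all detected probes. The bone list had a median of 0.56 and the endothelium list, with 2 of 8 higher at an unadjusted p below 0.05, 0.12. The retina list had a median of -0.66, with 1 of 6 detected genes called lower and 6 lower at an unadjusted p below 0.05. The pigment epithelium list had a median of -0.68, with 0 of 7 detected genes called and 6 lower by the same measure. The lens list had a median of -6.99, with 12 of 14 detected lens genes called lower. In the surface ectoderm list (median 0.18) 1 of 7 detected genes was called lower, and 3 were lower and 2 higher at an unadjusted p below 0.05. The part of the cell types taken with the eye region in the collagen differences was not tested.

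**Figure D5:**
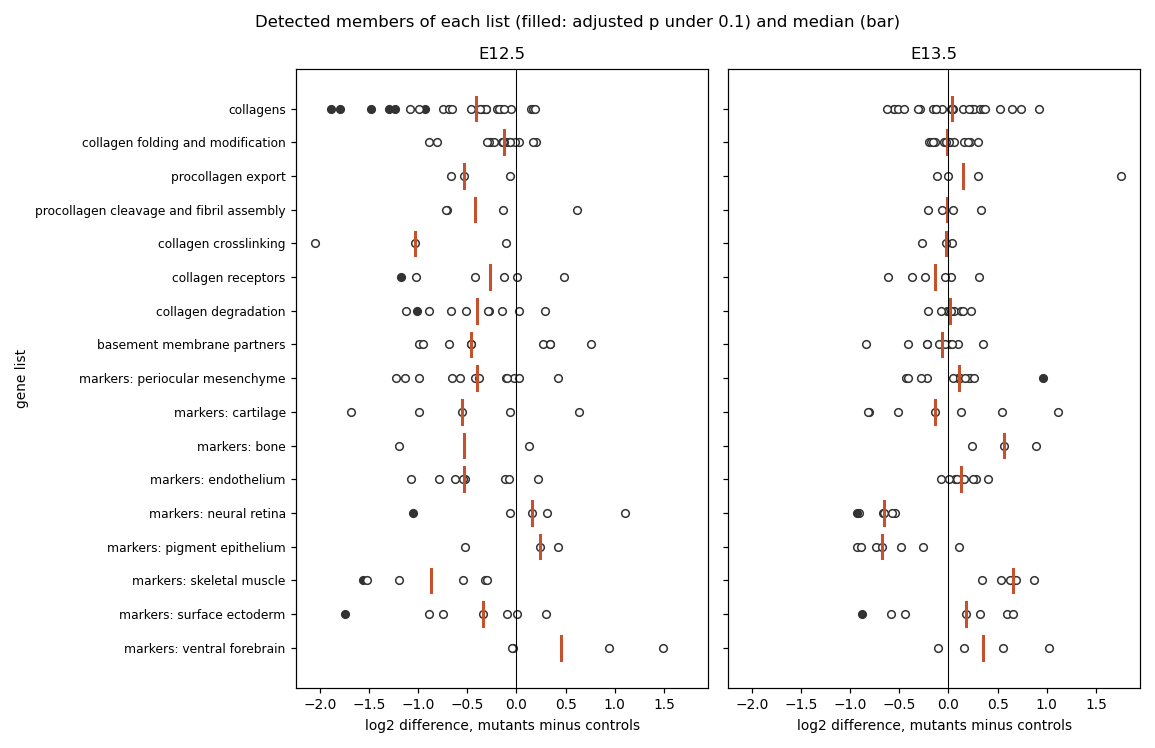
Log2 difference between *Aey69* and Ctrl at E12.5 and E13.5 for each detected gene of the collagens, of the lists of genes that act on them and of the marker lists other than lens, as 1 point per gene, filled where the adjusted p was under 0.1, with a bar at each list's median. At E12.5 the bar of the collagens is at -0.41, that of the periocular mesenchyme at -0.40 and that of the ventral forebrain at 0.45.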

How the data were processed

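Total RNA was amplified, labelled and hybridised to Illumina MouseRef-8 v2.0 arrays. The deposited table holds, per probe and array, a background-subtracted signal intensity and a detection p-value, both exported by the authors from GenomeStudio, and ran from -21 to 28964 on the 36 arrays used. The authors also deposited processed signals of each array, made with an offset and quantile normalisation. Their log2 served as an alternative. No column was left unmapped (0).

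Here an offset of 22, the smallest that made every signal at least 1, was added, the arrays were quantile normalised on the linear scale and log2 was taken. Genotypes were compared within each stage, and stages and interactions in 1 model of 10 groups, with limma 3.58.1 in R 4.3.3, Benjamini-Hochberg adjustment over all probes and a false discovery rate of 10%, after the study's methods. The detection filter was applied after the fit. A gene was called if any probe passed and is otherwise given by its brightest probe. A fold is 2 to the power of the difference, and where no array of a group detected the probe it is given as at least the fold from the floor of detected signals. The p-values measure the spread between the samples given, whose number limits precision. Same-numbered samples of both genotypes deviated together, at r above 0.1, in every pair at E9.5 alone (r = 0.48, 0.48 and 0.13). This pairing was seen in the data and is not stated in the labels, and the block there changed no call. At E10.5 the values were 0.57, 0.65, 0.07 and 0.82 and each sample also matched its own number best, but no pairing was taken there. The code was tested on simulated data.

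The members, the lists and the genes named were chosen with earlier results of these data known. Named with values were a fixed set of major collagens, every collagen called between genotypes or in an interaction, the member of each class with the widest difference at each stage, up to 3 called per direction and step in Ctrl, and up to 4 genes of each other list. Genes of the same family without a named probe were not analysed here. The E13.5 Ctrl samples were grouped by title and age, although another of their labels reads E12.5. Alternatives covered the background, offset, normalisation, filter, probe rule, model, excluded arrays, replicate block and leaving out each array. A block for the slide was not run, since no slide is given in the sources used here. Promoters came from RefSeq and figures were drawn with matplotlib 3.10.9.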

Additional observations from a re-analysis of the deposited data

Results flagged for a closer look

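In 10 of 137 collagen gene levels within groups of 4 arrays, 1 array lay far from the others, where chance picks out about 1 in 20. Ctrl array 5 of E10.5 accounted for 4 of them, with *Col4a1* at 12.45 (nearest array 11.44), *Col4a2* at 11.60 (10.97), *Col16a1* at 7.85 (7.01) and *Col23a1* at 8.72 (8.13), and its raw median signal was 9 against 15, 16 and 15. *Aey69* array 5 of E12.5 accounted for 3, with *Col6a1* at 8.70 (8.04), *Col17a1* at 6.62 (6.24) and *Col26a1* at 11.25 (10.99). The others were *Col3a1* at 7.75 on *Aey69* array 5 of E11.5 (7.07), *Col4a5* at 7.11 on *Aey69* array 2 of E9.5 (6.68) and *Col9a2* at 6.60 on *Aey69* array 3 of E9.5 (7.04).

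The difference between *Aey69* and Ctrl changed between stages, by the interaction test in limma, in 6 collagen genes from E11.5 to E12.5, namely *Col6a1* (-2.25), *Col6a2* (-1.73), *Col16a1* (-1.71), *Col8a2* (-1.54), *Col17a1* (-1.54) and *Col3a1* (-1.33). From E12.5 to E13.5 it changed in 8, namely *Col1a1* (2.53), *Col6a1* (2.24), *Col6a2* (2.00), *Col3a1* (1.73), *Col27a1* (1.61), *Col16a1* (1.38), *Col17a1* (1.19) and *Col5a1* (1.03). The first shift passed in each of the 15 fits that left out 1 array for the brightest probes of *Col6a1*, *Col8a2*, *Col16a1* and *Col17a1*.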

How the results depend on the processing

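Of 1304 alternative values of 73 gene differences, 1114 kept their direction and their side of the threshold, 158 lost the call, 28 gained one and 4 changed sign. The 6 genes lower at E12.5 became 4 under median scaling, 7 with normexp and 8 with a larger offset, and 0 with the 4 excluded arrays included, which also gave 0 for both late interactions (6 and 8), 0 for the Ctrl step to E12.5 (8) and 1 for that to E11.5 (6). The 4 changes of sign came from the same setting, with 0.35 for *Col4a5*, -0.16 for *Col5a2* and 0.71 for *Col4a2* at E13.5 and -0.61 for *Col4a2* in the Ctrl step to E13.5. The excluded Ctrl arrays of E9.5, E12.5 and E13.5 had 33.1, 52.6 and 26.2% of their probes detected and the excluded *Aey69* array of E13.5 had 44.0%. The arrays used had 44.6 to 54.9%. On the excluded Ctrl array of E13.5 *Col4a2* was 6.76, against a group mean of 11.73. At E13.5, where no gene was called, there was 1 under median scaling, quantile normalisation after log2 or the authors' values, 2 with normexp, 4 with the larger offset and 6 with the filter before the fit. The single Ctrl call from E9.5 to E10.5 became 0 under median scaling, 2 without the filter and 2 with the filter before the fit. Leaving out 1 array gave 0 to 12 genes at E12.5, 0 to 4 at E13.5 (4 without Ctrl array 4), 0 to 1, 5 to 8, 5 to 10 and 13 to 16 in the 4 Ctrl steps, 4 to 7 in the interaction to E12.5 and 4 to 8 in that to E13.5, with 5 in the third step without Ctrl array 4 of E11.5 and 4 in the last interaction without *Aey69* array 5 of E13.5. Same-numbered samples deviated together, at r above 0.1, in 8 of 17 pairs (-0.57 to 0.82), and in every pair at E9.5 alone (0.48, 0.48 and 0.13), where each sample matched its own number best, as also at E10.5 (0.07 to 0.82). The numbers were taken as a pairing at E9.5 but at no later stage, and the replicate block, on the authors' values, gave 0 genes at E9.5, as without it, and 0 at E12.5. Median scaling moved the median of all detected probes to -0.33 at E9.5 and -0.14 at E13.5, and the collagens then stood at 5 above and 18 below 0 at E9.5 and 12 and 15 at E13.5, where quantile normalisation gave 17 and 6, and 16 and 11. Causes were not tested. Apart from E12.5 without Ctrl array 2, the share of all detected probes called in each alternative fit is not given here. The counts of collagen genes called in those fits therefore cannot be set against it. Collagens detected on few arrays have no measured difference there.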

Other observations

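The 4 arrays that the authors excluded were normalised with the others for this purpose alone, and some of their collagens were far from the groups they are labelled with while others were close. *Col1a1* was 4.83 on the excluded Ctrl array of E9.5 (group mean 9.36), 4.50 on that of E13.5 (10.93) and 7.81 on the excluded *Aey69* array of E13.5 (11.67), and 10.23 on the excluded Ctrl array of E12.5 (10.85). That last array had *Col15a1* at 8.33 (8.33), *Col26a1* at 11.40 (11.39) and *Col4a1* at 12.33 (12.09), but *Col8a2* at 5.59 (6.72), *Col17a1* at 6.28 (7.20) and *Col16a1* at 8.08 (8.98). The excluded *Aey69* array of E13.5 had *Col4a1* at 11.53 (11.57) and *Col5a1* at 11.47 (11.54). *Col3a1* went the other way on 2 of them, with 7.96 on the Ctrl array of E9.5 (6.60) and 10.18 on that of E13.5 (9.12). *Col6a1* was below its group mean on all 4, at 6.31 (7.38), 8.56 (10.02), 10.49 (11.499) and 8.47 (11.14) in the order Ctrl E9.5, Ctrl E12.5, *Aey69* E13.5 and Ctrl E13.5.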
